A study of Homo sapiens with 24 samples.

Results

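The enzymes and subunits of Polycomb and of DNA methylation, 10 genes in all, were followed in D425 during induction of a hairpin against OTX2. D425 is an established line of human medulloblastoma. They were taken by name, as all probe sets of the array annotated to EZH2, EZH1, EED, SUZ12, DNMT1, UHRF1, HELLS, DNMT3A, DNMT3B or TET1. This gave 10 of 19775 named genes and 25 of 54675 probe sets, 24 of them annotated to 1 of these genes alone and 1 shared by SUZ12 and SUZ12P1. OTX2 encodes a homeobox transcription factor, and by its title the study asked how OTX2 acts on the cell cycle and on differentiation. The arm called shOTX2 here carried a short hairpin RNA against OTX2 that doxycycline switches on. It was sampled in 3 independent time courses at 0, 8, 16, 24, 48 and 96 h after doxycycline, with 1 array per course and time (18 arrays). The control arm was 1 course of D425 cells labelled control at the same times (6 arrays, 1 per time). The labels do not say what construct the control cells carry, whether either arm is a single clone, or what doxycycline dose was used. Both arms were plated 24 h before induction in medium with 10% fetal calf serum. Unless a block is named, the p-values below measure the spread between the 3 shOTX2 courses. The control course has 1 array per time, so p-values that use it hold no spread of the control. P-values given with the time course as a block measure the spread left after level differences between courses are taken out.

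Polycomb repressive complex 2 methylates histone H3 at lysine 27 and so marks silent developmental genes. EZH2, or its relative EZH1, is the catalytic subunit, and EED and SUZ12 are the core partners that the enzyme needs. DNA methylation is copied onto new strands after replication by DNMT1, which UHRF1 guides to half-methylated sites and which the chromatin remodeller HELLS assists. DNMT3A and DNMT3B set methylation at new sites, and TET1 oxidises methylated cytosine as the first step of its removal. In dividing neural precursors EZH2 and the copying enzymes are commonly high, while EZH1 is known from cells that have left the cycle.

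Values are MAS5 signal, the intensity of a probe set after each array was scaled as a whole. Changes are differences of log2(signal + 16), which understate the change of dim probe sets. A change is called when limma's Benjamini-Hochberg adjusted p over all 33803 kept probe sets is under 0.05, and every adjusted p here is of that kind. The filter asked for a signal above the median of the array on 3 or more arrays, and 21 of the 24 probe sets of a single member passed it and were kept. Each of the 10 genes had at least 1 kept probe set, and the brightest one stands for the gene below.

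Some facts of the whole series touch these genes. Array medians ran from 16.3 to 20.6. The ratio of actin's 3' to its 5' probe set, which rises as RNA or labelling quality drops, was 1.31 to 1.51 in course 1 and 1.30 to 1.55 in the control course, against 1.82 to 2.36 in course 2 and 1.87 to 2.02 in course 3. The brighter OTX2 probe set went from 4659 ± 217 at 0 h to 4188 ± 302 at 96 h (mean ± SD, n = 3), a log2 change of -0.15 that was not called (adjusted p = 0.19, and 0.0379 with the time course as a block, called the course block below), while median centring of the arrays gave -0.27 (adjusted p = 0.0107). The control course read 4964 and 5357. On the other OTX2 probe set the signal was 3027 ± 155 at 0 h and 3295 ± 275 at 96 h. The hairpin's target site is not given in the sources used here. These probe sets therefore do not settle whether or how far OTX2 mRNA fell, and the arm is named by its label. Of 7 medulloblastoma markers 6 were kept, with a summed signal of 11805 to 13169 in the shOTX2 arrays at 0 h, led by MYC and OTX2, of 9246 to 9731 at 96 h, and of 13498 to 15830 over the control course. Of the 6 kept, 1 was called higher at 96 h, CRX (log2 change 1.24, adjusted p = 8.48e-05). MYC (-0.71, adjusted p = 6.66e-05) and IMPG2 (-0.82, adjusted p = 0.00059) were called lower, so the sum does not stand for each marker. NPR3 was not kept and GABRA5 was dim. Summed immune markers did not exceed 53.8 on any array at 0 or 96 h or of the control course. The 6 neuron markers summed to 3977 to 5140 at 0 h and 6546 to 7159 at 96 h in the shOTX2 arm (5 of 6 called higher), against 3623 to 4581 over the control course. TUBB3, the exception, went from 2691 ± 682 to 2262 ± 747 (-0.27, adjusted p = 0.566). At 48 h 4 of the 6 were called higher and 1 lower. The 6 fibroblast markers summed to 72.0 to 102.9 and 560.3 to 1127 (4 of 5 tested called higher), against 183.7 to 387.5, with LUM not kept. COL1A1 led that sum, going from 39.1 ± 14.8 at 0 h to 542.4 ± 239 at 96 h, and DCN (-0.14) was not called. The astrocyte markers summed to 410.5 to 525.5 and 278.2 to 305.2 (SLC1A2, 1 of 2 tested, called lower), against 408.7 to 452.2, with GFAP and AQP4 not kept. Oligodendrocyte markers summed to 39.6 to 52.0 and 42.1 to 55.2 (1 of 3 tested called lower), and endothelial markers to 23.4 to 28.1 and 30.4 to 45.0 (0 of 1 called). The summed signals of the medulloblastoma, neuron, fibroblast and astrocyte lists moved with the results below at 96 h. The part of these lists in the results was not tested. In such bulk RNA, fewer cells of a type and less RNA per cell cannot be told apart.

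The 3 genes that copy DNA methylation fell together and the furthest of the 10. By 96 h DNMT1 stood at 34.7%, HELLS at 24.1% and UHRF1 at 23.3% of its 0 h mean. Most of the fall came between 24 and 48 h. The changes of DNMT1 and HELLS from 0 to 96 h were also called different from those of the control course, a contrast that uses 2 control arrays and whose calls were both lost without course 2 (adjusted p = 0.092 and 0.114). Their promoters are shown because members that move together invite a look at shared sequence. Each line gives 200 bases before the start of the gene and 30 from it, from RefSeq on GRCh38.p14, 5′ to 3′ on the gene's strand. UHRF1 has 3 start windows in that table, and the one shown was picked for its match. Capitals mark matches to the E2F motifs TTTCCCGC, TTTGGCGC or TTTGGCGG, searched on both strands.
HELLS chr10:94545588-94545817 (plus strand): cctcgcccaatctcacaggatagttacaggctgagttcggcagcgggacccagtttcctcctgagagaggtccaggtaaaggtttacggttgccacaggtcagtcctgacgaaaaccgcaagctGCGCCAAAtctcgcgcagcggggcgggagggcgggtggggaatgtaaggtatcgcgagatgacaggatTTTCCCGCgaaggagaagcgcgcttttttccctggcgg
UHRF1 chr19:4909301-4909530 (plus strand): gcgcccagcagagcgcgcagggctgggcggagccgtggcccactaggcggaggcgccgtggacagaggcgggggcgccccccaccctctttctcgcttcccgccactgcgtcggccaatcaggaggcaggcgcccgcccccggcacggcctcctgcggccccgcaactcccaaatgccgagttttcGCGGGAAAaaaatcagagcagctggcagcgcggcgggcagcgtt
DNMT1 chr19:10194924-10195153 (minus strand): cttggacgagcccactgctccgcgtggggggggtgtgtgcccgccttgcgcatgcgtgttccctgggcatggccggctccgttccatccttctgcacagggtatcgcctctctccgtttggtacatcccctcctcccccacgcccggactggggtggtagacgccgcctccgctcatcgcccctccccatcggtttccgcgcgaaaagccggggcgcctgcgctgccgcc
HELLS held TTTCCCGC at position -8 and, on the other strand, TTTGGCGC at position -76, counting the first transcribed base as 1 and naming the leftmost base of the match. UHRF1 held TTTCCCGC on the other strand at position -14. The DNMT1 stretch held none of these letters, which says nothing of E2F proteins there. TTTCCCGC is in 1.63%, TTTGGCGC in 0.652% and TTTGGCGG in 0.652% of 35116 RefSeq promoters of 300 bases, and at least 1 of them in 2.89%. A match is a description of the sequence, not a bound site.

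DNMT1, the maintenance methyltransferase, had signals of 1145, 1100 and 949.8 at 0 h in courses 1, 2 and 3. They read 845, 795 and 639.5 at 24 h, then 418, 366 and 375 at 48 h, then 363, 373 and 373 at 96 h. All 6 arrays at 48 and 96 h lay below all 12 earlier ones, and the control course stayed between 834.7 and 1188. The log2 change was -0.48 at 24 h (adjusted p = 0.0229), -1.42 at 48 h (SE 0.114, adjusted p = 7.22e-08) and -1.48 at 96 h (SE 0.114, adjusted p = 1.55e-08). The level was already low at 48 h, which held 96.0% of the 96 h change. The 24 h call was lost without course 2 (adjusted p = 0.413) or course 3 (0.159), without the trend in eBayes (0.056) and in a fit limited to the compared groups (0.15).

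UHRF1, which binds half-methylated DNA and recruits DNMT1, had signals of 1208, 779.6 and 833 at 0 h. They were 894.5, 771 and 495 at 24 h, then 387, 266 and 328.5 at 48 h, and 226, 175 and 257 at 96 h. Every late array lay below every earlier one, although the courses spread more than those of DNMT1 (0 h mean 940.3 ± 234, n = 3). The control course went from 1145 at 0 h to 951.5 at 48 h and 544 at 96 h, its lowest value. UHRF1 changed by -1.47 on the log2 scale at 48 h (adjusted p = 0.000254) and -2.01 at 96 h (SE 0.252, adjusted p = 4.95e-06), and UHRF1 had 1 probe set only. From 48 to 96 h it changed by -0.54 (adjusted p = 0.231, and 0.0251 with a course block).

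HELLS, a remodeller of the SNF2 family also called LSH, had 4 kept probe sets that gave the same picture. On the brightest, signals were 362, 392 and 390.5 at 0 h, 256, 280 and 230.4 at 24 h, then 92.9, 135 and 126.5 at 48 h, and 58.7, 107 and 109.8 at 96 h. On each of the 4 probe sets the late arrays lay below all earlier shOTX2 arrays. The control course went from 387 at 0 h to 233 at 24 h and 258 at 96 h, so it also read lower after 0 h, but stayed above every late shOTX2 array. The log2 change on the brightest probe set was -0.55 at 24 h (adjusted p = 0.127, and 0.0117 with a course block), -1.58 at 48 h (adjusted p = 5.56e-06) and -1.92 at 96 h (SE 0.187, adjusted p = 2.54e-07). The other 3 kept probe sets changed by -2.27, -1.97 and -1.27 at 96 h, and they followed the brightest one over the 24 arrays with Pearson r from 0.930 to 0.974.

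**Figure D1:**
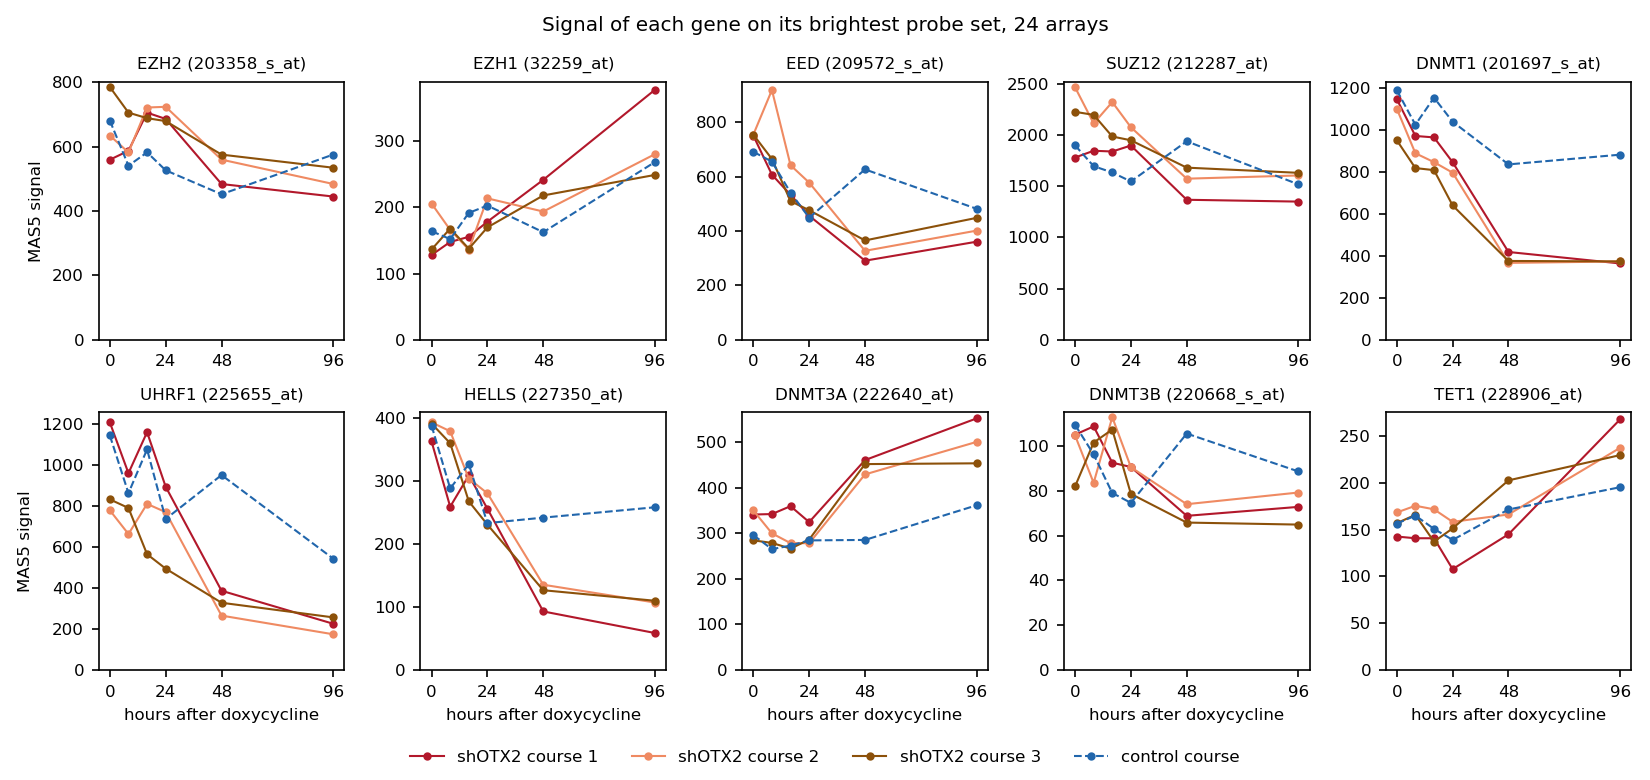
Signal (MAS5, linear axis from 0) of the brightest probe set of each gene against hours after doxycycline, with 1 point per array, solid lines for the 3 shOTX2 courses and a dashed line for the control course. DNMT1, UHRF1 and HELLS drop between 24 and 48 h in all 3 courses (DNMT1 from 760 ± 107 to 386 ± 27.7), while DNMT3A, EZH1 and TET1 end above their start.

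The core of Polycomb repressive complex 2 showed smaller log2 changes. EED fell to 53.6%, SUZ12 to 70.8% and EZH2 to 73.9% of the 0 h mean at 96 h, and all were called lower, while EZH1 rose to 193%. At 24 h the change of EED was -0.57 in the shOTX2 arm and -0.61 in the control course, and EZH1 rose mainly after 24 h. The promoters of the 3 core genes that held a motif are shown in the same way, with capitals for the E2F motifs and, in SUZ12, for TTCAAA, the other strand of the cell cycle homology motif TTTGAA. All motifs were searched on both strands. EZH2 has 2 start windows, and the one with a match is shown.
SUZ12 chr17:31936807-31937036 (plus strand): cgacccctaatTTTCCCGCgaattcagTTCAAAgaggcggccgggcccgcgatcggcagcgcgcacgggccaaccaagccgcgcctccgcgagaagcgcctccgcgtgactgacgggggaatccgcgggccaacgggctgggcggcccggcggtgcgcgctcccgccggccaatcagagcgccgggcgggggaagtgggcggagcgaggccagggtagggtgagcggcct
EZH2 chr7:148884262-148884491 (minus strand): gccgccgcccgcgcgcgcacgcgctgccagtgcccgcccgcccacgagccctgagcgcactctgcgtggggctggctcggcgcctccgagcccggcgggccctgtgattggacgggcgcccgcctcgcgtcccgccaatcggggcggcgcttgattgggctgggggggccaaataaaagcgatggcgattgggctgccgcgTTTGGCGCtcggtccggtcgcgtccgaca
EZH1 chr17:42745011-42745240 (minus strand): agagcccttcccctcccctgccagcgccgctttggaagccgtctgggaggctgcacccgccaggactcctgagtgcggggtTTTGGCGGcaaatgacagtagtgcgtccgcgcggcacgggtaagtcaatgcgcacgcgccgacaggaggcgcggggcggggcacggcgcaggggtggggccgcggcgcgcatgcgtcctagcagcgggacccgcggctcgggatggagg
SUZ12 held TTTCCCGC at position -189 and TTTGAA on the other strand at position -173, EZH2 held TTTGGCGC at position 2, and EZH1 held TTTGGCGG at position -119. Thus 5 of the 10 genes, in 5 of their 20 promoter windows of 300 bases, held an E2F motif. They include EZH1, which rose, and leave out DNMT1 and EED, which fell. TTTGAA was in 2 of the 20 windows (SUZ12 and DNMT3A) and in 15.2% of all promoters. The OTX and CRX motif TAATCC was in none of the 20 windows and in 6.36% of all promoters.

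EED, the subunit that reads the methyl mark, had nearly equal signals of 751, 754 and 755 at 0 h. They were 533, 642 and 509.8 at 16 h, 456, 578 and 476.5 at 24 h, then 291, 327 and 365 at 48 h, and 361, 401.5 and 448 at 96 h. The late arrays lay below all earlier ones, and the lowest point was at 48 h in every course. The control course went from 691.5 at 0 h to 449 at 24 h, just below the shOTX2 arrays of that time, and read 627 at 48 h and 482 at 96 h. The log2 change was -0.42 at 16 h (adjusted p = 0.294, and 0.0321 with a course block), -0.57 at 24 h (adjusted p = 0.0351), -1.17 at 48 h (SE 0.145, adjusted p = 9.55e-06) and -0.88 at 96 h (adjusted p = 9.7e-05). The 24 h call was lost without any 1 of the courses (adjusted p = 0.0797, 0.132 and 0.317 without courses 1, 2 and 3), without the filter on dim probe sets (0.0519), without the trend (0.0626) and in a fit limited to the compared groups (0.0647).

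SUZ12, the subunit that holds the complex together, had signals of 1782, 2469 and 2229 at 0 h, 1369, 1575 and 1683 at 48 h, and 1351, 1606.5 and 1632 at 96 h. The late arrays lay below the earlier ones of the arm, but overlapped the control course, which ran from 1519 to 1940.5. On the log2 scale SUZ12 changed by -0.47 at 48 h (adjusted p = 0.00774) and -0.49 at 96 h (SE 0.124, adjusted p = 0.00441). At 96 h the call was lost without course 2 (adjusted p = 0.0752) or course 3 (0.0587), and at 48 h likewise (0.134 and 0.082). The probe set shared with SUZ12P1 went the other way, from 496.7 ± 13.4 to 728.7 ± 38.1 (log2 change 0.54, adjusted p = 0.00143, and 0.0693 without course 2), and its signal cannot be assigned to either gene. SUZ12P1 is a pseudogene of SUZ12.

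EZH2, the catalytic subunit of dividing cells, had signals of 559, 634 and 785 at 0 h, 686, 724 and 679 at 24 h, then 484, 559.5 and 575 at 48 h, and 445, 484 and 534 at 96 h. The 96 h arrays lay below the 0 h arrays, by a margin smaller than the spread of the latter. The control course ran from 452 at 48 h to 681 at 0 h. The log2 change was -0.27 at 48 h (adjusted p = 0.108, 0.0214 with a course block, and 0.0199 with median centring, which gave -0.39) and -0.41 at 96 h (SE 0.12, adjusted p = 0.0111). The 96 h call was lost without course 2 (adjusted p = 0.119), without course 3 (0.075) and in a fit limited to the compared groups (0.0584).

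EZH1, the weaker catalytic subunit known from resting cells, had signals of 128, 206 and 136 at 0 h, 241.5, 194 and 218 at 48 h, and 377.5, 280.3 and 249 at 96 h. The 96 h arrays all lay above the 0 h arrays, and course 1 rose the most. The control course also read higher at its end, with 164 at 0 h and 268 at 96 h. EZH1 changed by 0.46 on the log2 scale at 48 h (adjusted p = 0.0537, and 0.019 with a course block) and 0.89 at 96 h (SE 0.169, adjusted p = 0.00039). At 48 h it was 0.73 without course 2 (adjusted p = 0.0362), and it was also called with a signal of 100 as the filter (0.0353) and with 1 probe set per gene (0.0442). A second EZH1 probe set gave 0.93 at 96 h (adjusted p = 0.000471), but in the control course it read 169.6 at 0 h and 176.9 at 96 h. The dimmer 2 kept EZH1 probe sets changed by 0.11 and -0.03 and were not called, and they did not follow the brightest one over the arrays (Pearson r of 0.0099 and -0.28). The sign of the first of these turned with median centring or quantile normalization.

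On their brightest probe sets the enzymes that set new DNA methylation moved apart in the shOTX2 arm, and TET1 rose late. Late against early, none of these genes was called different from the control course without a course block. DNMT3A was at 154% and TET1 at 157% of the 0 h mean at 96 h, both called higher, while DNMT3B was at 74.4% and missed the threshold at that time.

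DNMT3A had signals of 341, 349.9 and 284 at 0 h, 324, 278 and 286 at 24 h, then 460.2, 429 and 451 at 48 h, and 551.6, 500.1 and 453 at 96 h. All 6 late arrays lay above all 12 earlier ones, and the control course stayed between 265 and 361. DNMT3A changed by 0.45 on the log2 scale at 48 h (adjusted p = 0.0146) and 0.60 at 96 h (SE 0.128, adjusted p = 0.00105). The 48 h call was lost without course 2 (adjusted p = 0.101) or course 3 (0.192) and after median centring of the arrays (0.109). The other 2 kept DNMT3A probe sets were dim, with mean signals over the 24 arrays of 60.4 and 21.3, and changed by 0.36 and -0.34 without a call.

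DNMT3B, the de novo enzyme best known from embryonic cells, was dim, with signals of 105.0, 104.7 and 81.9 at 0 h, 68.8, 74.0 and 65.8 at 48 h, and 72.8, 79.2 and 64.9 at 96 h. The 96 h arrays lay just below the 0 h arrays, and the control course ran from 74.6 to 109. DNMT3B changed by -0.40 on the log2 scale at 48 h (adjusted p = 0.0387) and -0.35 at 96 h (95% interval -0.64 to -0.066, adjusted p = 0.051). The 96 h value sat at the threshold: a course block gave a call (adjusted p = 0.0256), as did median centring (0.0114), quantile normalization (0.00915), eBayes without the trend (0.0416), a signal of 100 as the filter (0.0317) and 1 probe set per gene (0.0431). The 48 h call was lost without course 1 (adjusted p = 0.141), course 2 (0.221) or course 3 (0.121), without the filter (0.0572) and in a fit limited to the compared groups (0.123).

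TET1, the methylcytosine dioxygenase of early development, had signals of 143, 168 and 157 at 0 h, 145, 166 and 203 at 48 h, and 268, 237 and 229.6 at 96 h. The 96 h arrays lay above all other arrays of the arm and above the control course, which ended at 195. On the log2 scale TET1 changed by 0.11 at 48 h (adjusted p = 0.645, and -0.0036 with median centring) and 0.60 at 96 h (SE 0.153, adjusted p = 0.00441). The second TET1 probe set, whose name marks probes that can match other sequences, gave 0.59 at 48 h (adjusted p = 0.0323) and 1.39 at 96 h (adjusted p = 1.89e-05). Its control signals were 41.3 at 0 h and 96.6 at 96 h. The 48 h call of that probe set was lost without course 2 (adjusted p = 0.316) or course 3 (0.299), without the filter (0.0534), with either other scaling (0.0939 and 0.0578) and in a fit limited to the compared groups (0.0548). From 48 to 96 h the brightest TET1 probe set changed by 0.49 (adjusted p = 0.0611, and 0.00865 with a course block).

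**Figure D2:**
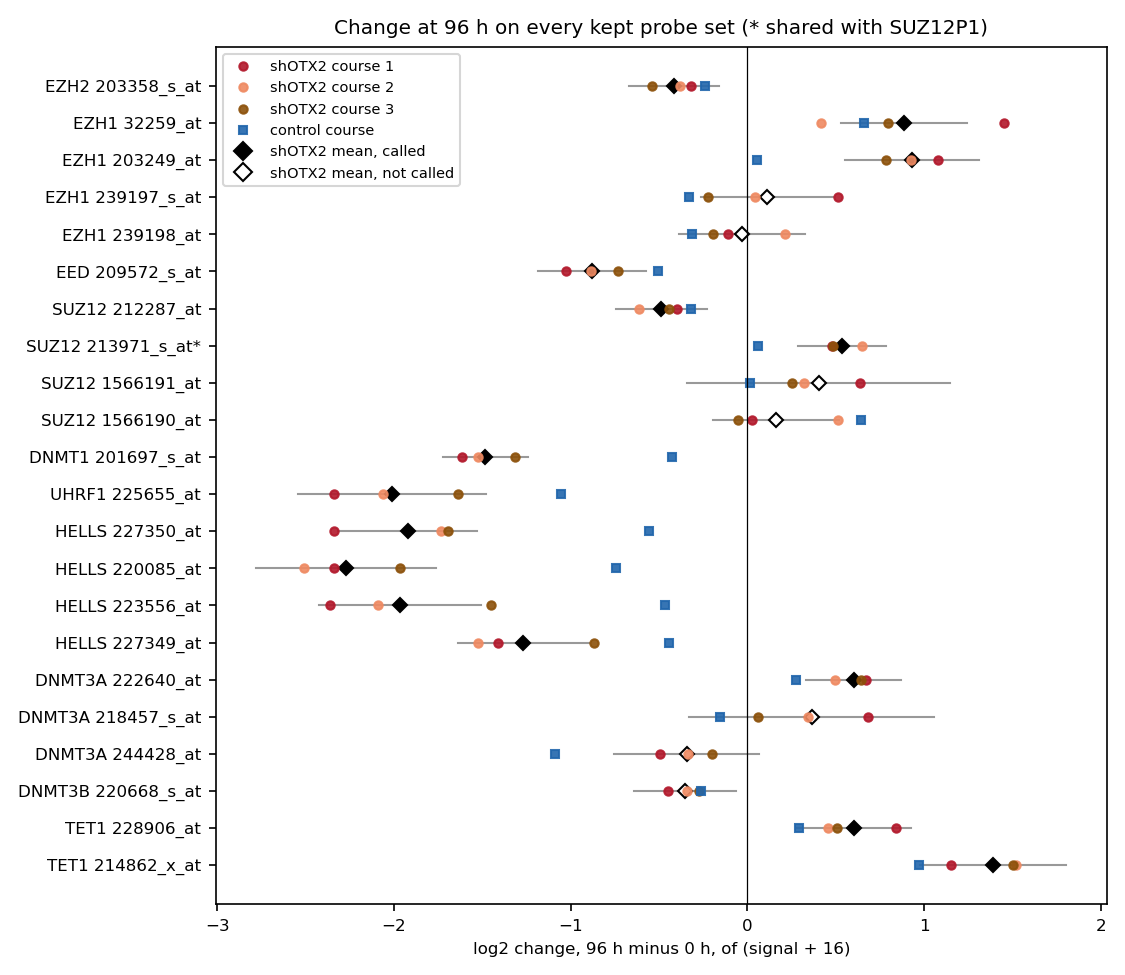
Log2 change from 0 to 96 h for each kept probe set of the 10 genes (round points for the 3 shOTX2 courses, blue squares for the control course, diamonds for the fitted shOTX2 mean with its 95% interval, filled where called). All 4 HELLS probe sets lie at -1.27 or lower, while the shared SUZ12 probe set (0.54) and the brightest SUZ12 probe set (-0.49) lie on opposite sides of 0.

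Calls grew in number over time, both among the 10 genes and over all genes. None of the 10 genes was called at 8 h, when limma called 0% of 13903 genes (1 member probe set of 21 and 1070 of all 33803 were under an unadjusted p of 0.05). None was called at 16 h, against 0.777% of genes (2 member probe sets and 3153 of all under an unadjusted p of 0.05), and 2 members (DNMT1 and EED) were lower at 24 h, against 2.14%. At 48 h 1 gene was higher, against 15.5% of genes, and 6 were lower, against 16.4%. At 96 h 3 were higher, against 20.6%, and 6 lower, against 21.9%, and only DNMT3B was not called. The median change of the 10 genes at 96 h was -0.45, with -0.000088 over all genes.

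Between 24 and 48 h alone, DNMT3A was called higher (0.57) and 4 genes lower, namely UHRF1 (-1.08), HELLS (-1.03), DNMT1 (-0.94) and EED (-0.59), against 7.41% and 8.43% of genes. Without course 2 only DNMT1 kept its call in this step, and without course 3 DNMT1, UHRF1 and HELLS did. With the course as a block EZH2 (-0.36, adjusted p = 0.00554) and SUZ12 (-0.36, adjusted p = 0.000961) were called as well. Between 48 and 96 h none of the 10 brightest probe sets was called, against 10.1% of genes (7 member probe sets and 6858 of all under an unadjusted p of 0.05). The second TET1 probe set was called in that step (0.80, adjusted p = 0.0174), but not without course 2 (0.284) or course 3 (0.0766).

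Separation of the arrays was counted as well. At 96 h the 3 shOTX2 arrays lay wholly above those at 0 h for 3 genes (24.9% of all genes) and wholly below for 7 (25.4%). All 6 arrays at 48 and 96 h lay above all 12 earlier ones for DNMT3A (8.66% of genes) and below for DNMT1, UHRF1, HELLS, EED and SUZ12 (10.3%). A different scaling shifts all genes. After each array was centred by its own median, the median change of all probe sets at 96 h moved from 0.051 to -0.068, and the share of higher calls among all calls from 54.3% to 43.0%. The brightest probe set of each of the 10 genes kept its direction at 96 h under both other scalings.

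The comparison of the shOTX2 arm with the course labelled control asks which changes exceed those of that course. Late (48 and 96 h) against early (0 and 8 h), the control course itself had 0 called genes among the 10 and 0% of all genes, with 2 member probe sets of 21 and 2331 of all 33803 under an unadjusted p of 0.05. Its log2 changes pointed the same way as in the shOTX2 arm for all 10 genes, for example -0.46 for UHRF1, -0.40 for HELLS, -0.36 for DNMT1 and 0.37 for EZH1. Their sizes rested on single control arrays: over all alternatives UHRF1 ran from -0.85 (without the 48 h control array) to -0.06 (without the 96 h one), EZH1 from 0.04 (without 96 h) to 0.71 (without 48 h), and HELLS from -0.60 (without 8 h) to -0.19 (without 0 h). Likewise EED ran from -0.47 to -0.10, EZH2 from -0.41 to -0.08, DNMT3A from 0.02 to 0.35, TET1 from 0.09 to 0.26 and DNMT1 from -0.46 to -0.25. That of SUZ12 (-0.06) turned to 0.017 without the 0 h and 0.11 without the 96 h control array, and that of DNMT3B (-0.07) to 0.0068 and 0.035. At 0 h no member was called between the arms, against 0.309% of genes (1 member probe set and 2754 of all under an unadjusted p of 0.05). Each control group holds 1 array, so its spread was taken from the shOTX2 groups.

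The late-minus-early change differed between the arms for 4 of the 10 genes, all lower in the shOTX2 arm, against 10.9% of genes called lower and 9.62% called higher. For DNMT1 the changes of courses 1, 2 and 3 were -1.40, -1.38 and -1.20, against -0.36 in the control course, a difference of -0.97 (95% interval -1.31 to -0.63, adjusted p = 0.000421). For HELLS they were -1.84, -1.56 and -1.54, against -0.40, a difference of -1.25 (95% interval -1.80 to -0.69, adjusted p = 0.00308). For UHRF1 they were -1.81, -1.67 and -1.43, against -0.46, a difference of -1.18 (adjusted p = 0.0305), and for EED -1.02, -1.16 and -0.78, against -0.29, a difference of -0.71 (adjusted p = 0.0245). All 3 courses lay below the control course in these genes. The actin ratio was higher in courses 2 and 3 than in course 1 and the control course, and its part in these differences was not tested.

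The calls of UHRF1 and EED rested on few control arrays. UHRF1 lost its call without the control array at 8 h (-0.98, adjusted p = 0.163) or at 48 h (-0.78, adjusted p = 0.298), and without course 2 (adjusted p = 0.121). EED lost its call without the control array at 0 h (adjusted p = 0.0543), 8 h (0.0921) or 48 h (0.212), and without course 2 (0.0728) or course 3 (0.0634). DNMT1 and HELLS kept theirs in each of these fits.

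For the other 6 genes the arms were not shown to differ, with intervals that leave room for changes either way or near 0. The difference was -0.07 for EZH2 (95% interval -0.42 to 0.29), 0.27 for EZH1 (-0.23 to 0.78), 0.17 for TET1 (-0.29 to 0.62) and -0.31 for DNMT3B (-0.72 to 0.10). The sign for EZH2 turned without the control array at 8 h (0.097) or 96 h (0.10), and that for EZH1 without the one at 48 h (-0.065). SUZ12 differed by -0.38 (adjusted p = 0.159) and DNMT3A by 0.38 (adjusted p = 0.186), and both were called with a course block (adjusted p = 0.00756 and 0.0321), SUZ12 also without course 1 (0.0292). The second EZH1 probe set differed by 0.70 (adjusted p = 0.0731, and 0.00864 with the block).

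From 0 to 96 h alone, DNMT1 (-1.06, adjusted p = 0.00637) and HELLS (-1.36, adjusted p = 0.0279) differed between the arms, against 6.48% of genes called lower. UHRF1 differed by -0.96 (adjusted p = 0.299, and 0.0462 with the block), its control course having read 544 at 96 h. This contrast uses 2 control arrays. Without course 2 neither gene was called (adjusted p = 0.092 for DNMT1 and 0.114 for HELLS), and HELLS was not called without course 3 (0.0932) or in a fit limited to the compared groups (0.0998).

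**Figure D3:**
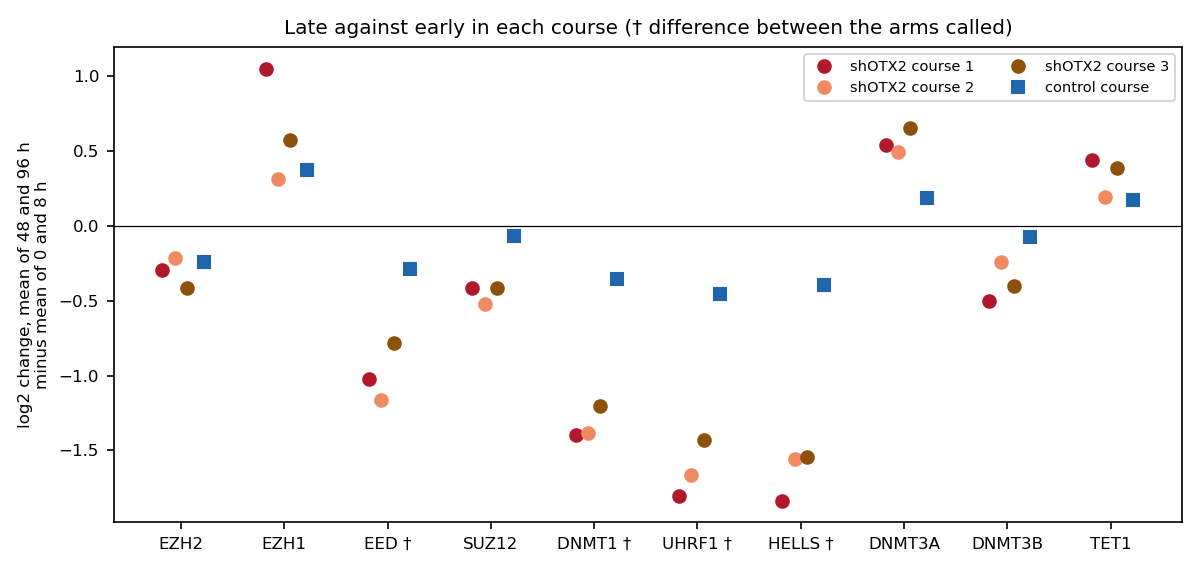
Log2 change of the mean of 48 and 96 h against the mean of 0 and 8 h in each of the 3 shOTX2 courses (round points) and the control course (squares), brightest probe set of each gene. In EED, DNMT1, UHRF1 and HELLS all 3 courses lie below the control course and the difference was called (dagger), while EZH2 shows -0.30, -0.22 and -0.41 beside -0.24 in the control course.

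The 10 genes were set beside the rest of their pathways. The 16 listed genes of S phase and proliferation, among them PCNA, the MCM helicase subunits and the ribonucleotide reductase subunits, were all called lower at 96 h with a median of -2.09, led by RRM2 (-2.54), CDC6 (-2.50) and TYMS (-2.49). Between the arms 15 of the 16 were lower late against early, with a median of -1.23. In this comparison 10.9% of all genes were called lower and 9.62% higher, which holds for the lists below too. In the control course the median of the 16 late against early was -0.46 with none called. From 0 to 96 h alone 8 of the 16 were called lower between the arms, with a median of -1.16, against 6.48% of all genes. Their mean log2 signal went from 10.40 at 0 h to 9.53 at 96 h in the control course. In courses 1, 2 and 3 it went from 10.39, 10.34 and 10.13 to 8.21, 8.21 and 8.51. The mean of these genes over the 24 arrays ran with UHRF1 (Pearson r 0.967), DNMT1 (0.960) and HELLS (0.944), less closely with EED (0.791), DNMT3B (0.726), SUZ12 (0.649) and EZH2 (0.562), and opposite to DNMT3A (-0.857), EZH1 (-0.780) and TET1 (-0.715). These values describe 24 arrays that share their times, with the late shOTX2 arrays apart from the rest, and whether proliferation accounts for them was not tested.

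Of the partners of Polycomb repressive complex 2, 9 of 10 were tested, and 4 rose and 3 fell at 96 h with a median of 0.18. JARID2, which helps bring the complex to its targets, went from 544 ± 23.2 to 2433 ± 542 (log2 change 2.11, adjusted p = 1.38e-08). The Polycomb-like proteins parted, with MTF2 (0.85) and PHF1 (0.51) higher and PHF19 lower, from 343 ± 77.6 to 55.7 ± 12.3 (-2.32, adjusted p = 2.07e-07). RBBP7, a histone-binding subunit, fell by 0.78 and EPOP by 0.75. The calls of MTF2 (adjusted p = 0.0701 without course 2 and 0.0676 without course 3) and PHF1 (0.106 without course 3) rested on single courses, and PHF1 changed by 0.34 without course 1. Between the arms late against early 1 partner was higher, JARID2, and 3 lower, PHF19, RBBP7 and EPOP.

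Of the genes of Polycomb repressive complex 1 and of the enzymes that oppose Polycomb, 25 of 30 were tested, and 10 rose and 5 fell at 96 h with a median of 0.28. KDM6B, a demethylase of lysine 27, rose from 85.6 ± 7.33 to 318 ± 41.6 (1.71, adjusted p = 3.33e-08), and KDM6B also read 95.7 at 0 h and 179 at 96 h in the control course. PHC2 (1.35) and PCGF3 (1.28), subunits of the complex, rose too. CBX6 (-1.09), a reader of the mark, PCGF5 (-0.86) and KDM2B (-0.76) fell, the last 2 with calls lost without course 2 (adjusted p = 0.0883 and 0.0983). The change of PCGF5 was -0.52 with a pseudocount of 64. PCGF5 was dim, with 82.7 ± 20.5 at 0 h and 38.0 ± 8.68 at 96 h, against 35.6 in the control course at 0 h. CBX2, a relative of CBX6, rose by 1.10 (adjusted p = 0.000469). Between the arms late against early 4 were higher, PCGF3, RYBP, KDM6B and ASXL3, and 1 lower, CBX6. Not called between the arms were PHC2 (1.09, adjusted p = 0.0509), PCGF5 (-0.64, 0.216), KDM2B (-0.77, 0.07) and CBX2 (0.83, 0.0706).

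Of the partners of DNA methylation, 17 of 20 were tested, and 4 rose and 5 fell at 96 h with a median of -0.16. TET2, a relative of TET1, rose from 93.6 ± 5.71 to 400.1 ± 48.9 (1.92, adjusted p = 1.17e-09), with 83.5 and 104.5 in the control course, and TET3 rose by 0.78. ZBTB33, a reader of methylated DNA, rose by 0.83, whereas the readers ZBTB38 (-1.52) and MBD2 (-1.02) fell, as did CDCA7L (-1.09). DNMT3L, the cofactor of the de novo enzymes, was not kept, at 5.77 ± 7.14 at 0 h. Between the arms late against early 2 were higher, TET2 (1.46, adjusted p = 1.37e-05) and TDG, and 3 lower, ZBTB38, MBD2 and CDCA7. CDCA7 changed by -0.87 at 96 h (adjusted p = 6.16e-07), with 1201 at 0 h and 1165 at 96 h in the control course. TET3 (0.22, adjusted p = 0.572), ZBTB33 (0.40, adjusted p = 0.0735) and CDCA7L (-0.61, adjusted p = 0.082) were not called between the arms. In the control course TET3 and ZBTB33 also read higher at 96 h than at 0 h (436.6 against 346.5, and 636.2 against 499.9). Beside the 20.6% of all genes called higher and 21.9% called lower at 96 h, nothing particular to any of these lists is read from its counts.

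**Figure D4:**
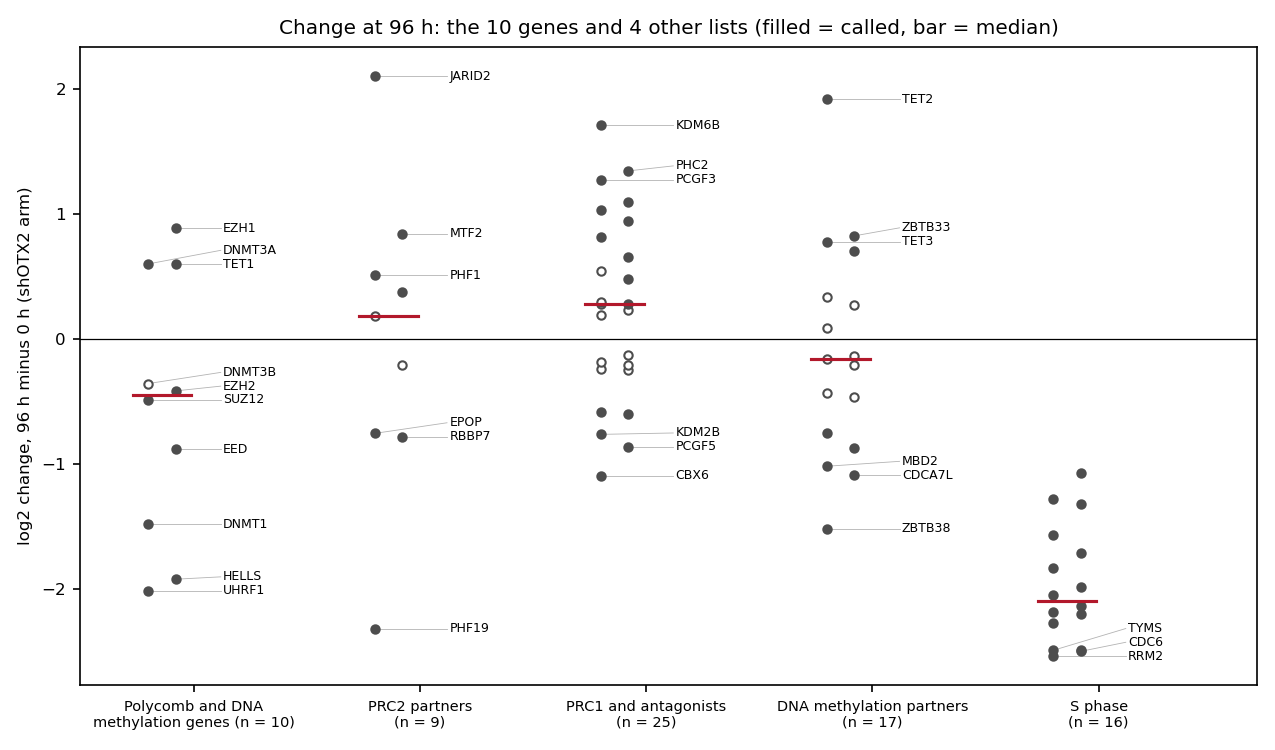
Log2 change from 0 to 96 h in the shOTX2 arm for the 10 genes and 4 other gene lists, 1 point per gene on its brightest probe set, filled where called, with a bar at the median. The 16 S phase genes lie at or below -1.07 (median -2.09), and the 10 genes spread from UHRF1 at -2.01 to EZH1 at 0.89.

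Genes were ranked by likeness of pattern to each member over the 24 arrays. DNMT1 ran closest with SLBP (Pearson r 0.982), which binds histone mRNA, MCM3 (0.980), a subunit of the replicative helicase, and SLC25A15 (0.970), a mitochondrial ornithine carrier. UHRF1 ran closest with MCM5 (0.979), TK1 (0.977) and TACC3 (0.971), a protein of the mitotic spindle, and HELLS with TIPIN (0.975), DBF4 (0.975) and CHEK1 (0.972).

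The others had looser neighbours. EED ran closest with POLD3 (0.944), NUP107 (0.942) and OAT (0.941), SUZ12 with PARPBP (0.935), PRPS2 (0.931) and TFAM (0.921), and EZH2 with TJP1 (0.907), TMEM168 (0.859) and ZNF551 (0.840). DNMT3A was nearest to PHF21B (0.947), SCG3 (0.941) and THBS3 (0.934), and EZH1 to PARP6 (0.859), CELF3 (0.855) and H2BC21 (0.854). DNMT3B was nearest to TARDBP (0.849), BCAR4 (0.847) and FBXO32 (0.796), and TET1 to PDE7A (0.891), ZNF644 (0.877) and PLCXD2 (0.873). The best match among 13902 other genes is high by choice, so these values only rank neighbours.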

How the data were processed

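Total RNA of each of the 24 samples was read on 1 Affymetrix U133 Plus 2.0 array. The authors deposited linear signal intensity from MAS5 in GCOS, as named in the submitters' processing notes (no version is given). Each array's trimmed mean of the deposited intensity (2% off each end) was near 100, so arrays were scaled as a whole and a shift common to most genes cannot be seen. Arrays have no read depth, and their number limits the precision.

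Names came from the platform annotation, where 41091 of 54675 probe sets had 1 gene symbol, 1801 several and 11777 none. Symbols were updated by Entrez ID with the RefSeq table of GRCh38.p14 for 41037. After leaving out 62 control probe sets, 33803 were kept, for 13903 genes. Promoter sequences were RefSeq's, found for 10 of 10 genes.

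limma 3.58.1 in R 4.3.3 was fitted to log2(signal + 16) with lmFit, using 12 groups and all 24 arrays (12 residual degrees of freedom), and eBayes with a trend, with Benjamini-Hochberg adjustment over all kept probe sets. The scripts were tested on simulated data. Groups, times and course numbers came from the labels. The labels number the courses and call them independent, and the number was taken to join the arrays of 1 course over time. What was left after subtracting group means correlated in all 45 same-course pairs of arrays (Pearson r across probe sets from 0.157 to 0.556 with a median of 0.243), and for 16 of 18 arrays the best match was their own course. The main fit has no block, so differences between the courses stay in its spread. The fit with this replicate block is quoted where it changes a call. Whether courses were separate cultures is only as the word independent says.

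The members and gene lists were chosen with earlier results of these data known. The rule for named genes took all 10 members with every probe set, OTX2, the 3 largest called rises and falls at 96 h in each list, and the 3 genes most like each member. Genes named beside these were picked after their values were seen. Alternatives were other pseudocounts (1 and 64), filters, array scalings, eBayes without trend, only the compared groups, 1 probe set per gene, the block, and leaving out each course or control array.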

Additional observations from a re-analysis of the deposited data

Results flagged for a closer look

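Results whose change differed between the arms, by the fitted difference itself, are listed here. Late (48 and 96 h) against early (0 and 8 h), the shOTX2 change was lower than that of the control course by a log2 difference of -0.71 for EED, -0.97 for DNMT1 and -1.18 for UHRF1. For HELLS the differences were -1.25, -1.61 and -1.54 on its 3 brightest probe sets. From 0 to 96 h alone the differences were -1.06 for DNMT1, and -1.36 and -1.50 on 2 HELLS probe sets. The last of these, on the probe set of HELLS with the third highest signal, was not called without the filter (adjusted p = 0.0582), without the trend (0.0532) in a fit limited to the compared groups (0.0634), or without course 2 (0.139) or course 3 (0.0697) in limma. From 0 to 96 h the other 2 kept HELLS probe sets differed by -1.53 and -0.83 and were not called. Late against early the dimmest kept HELLS probe set differed by -0.69 and was not called. All of these differences rest on the 1 control course, and the role of the S phase genes that moved with them was not tested. Groups of 3 arrays or 1 array were too small for a search for outlying samples.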

How the results depend on the processing

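Over all alternatives, 1190 recomputed log2 changes kept their direction and their side of the threshold, 73 lost the call, 17 gained one and 14 turned sign, all 14 of them on changes that were not called. Of the counts of called genes in a list, 334 stayed within 1.5 times and 73 moved. With the replicate block 1 member was called at 16 h (0 without it) and 2 from 48 to 96 h (0 without it), and the blocked calls that differ are given beside each gene; it changed no other call of the members' brightest probe sets. From 48 to 96 h 1 member was called with a pseudocount of 64, with a signal of 100 as the filter, and with 1 probe set per gene. At 24 h (2 called) there was 1 without the filter, 0 without the trend and 0 in a fit limited to the compared groups, and 0 to 2 without a course. From 0 to 96 h between the arms (2 called) there was 1 in a fit limited to the compared groups, and 0 to 2 without a course. Late against early between the arms (4 called) gave 2 to 5 without a course, and 2 without the control array at 8 h or at 48 h. From 24 to 48 h (5 called) leaving out a course gave 1 to 5, and at 48 h (7 called) 4 to 6. Signs turned for TET1 at 48 h with median centring (-0.0036); at 96 h for the third EZH1 probe set with median centring (-0.0055), quantile normalization (-0.030) and without a course (-0.087 to 0.28), for the fourth without a course (-0.15 to 0.053), and for the dimmest SUZ12 probe set without a course (-0.011 to 0.27). In the control course SUZ12 turned without the array at 0 h (0.017) or 96 h (0.11), and DNMT3B likewise (0.0068 and 0.035). Between the arms EZH2 turned without the control array at 8 h (0.097) or 96 h (0.10), and EZH1 without that at 48 h (-0.065). Fits without a course have fewer arrays, and beyond that the causes of these moves were not tested. Low signals limit what DNMT3B and the dim probe sets can show. DNMT3B, with a mean signal of 89.0, lay above the array median on all 24 arrays. The dimmest kept probe sets of DNMT3A (21.3) and SUZ12 (15.6) lay near it.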

Other observations

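Probe sets of the members that did not pass the filter stayed dim throughout. The fifth EZH1 probe set lay between 0.90 and 20.0 over the 24 arrays, the second EED probe set between 0.70 and 19.4, and the fifth HELLS probe set between 2.1 and 19.3. That HELLS probe set nevertheless read 15.5, 10.9 and 12.8 at 0 h and 8.9, 2.1 and 4.8 at 96 h. The dim SUZ12 probe sets had mean signals of 46.4 and 15.6 and changed by 0.40 and 0.16 at 96 h, neither called by limma (adjusted p = 0.414 and 0.504). Of them, the brighter one read 15.1 in course 1 and 63.1 and 61.9 in courses 2 and 3 at 0 h.

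Among the genes not named by rule, TDG, the glycosylase that removes oxidised methylcytosine, was chosen after its values were seen. It rose from 1018 ± 146 to 1661 ± 166 at 96 h (log2 change 0.70, adjusted p = 0.000183 by limma), with 836.7 and 799.7 in the control course.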
